A study of Mus musculus with 11 samples.

Results

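The 9 genes described here, Cpa3, Gata2, Cyp11a1, Kit, Mcpt8, Fcer1a, Ms4a2, Cd200r3 and Hdc, are marker or lineage genes of basophils and mast cells, and they were followed in RNA of eosinophils sorted from mouse blood. They were taken by gene symbol from a count table of 55486 genes, in which each symbol matched 1 row. The list was chosen by name and sets no threshold, but the counts and fold changes of these genes in the same libraries were known when it was drawn up, so the levels of the 9 genes and their differences between groups are given as descriptions, and no test of them is used as support.

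All mice were FVB/N animals bearing metastases derived from a mammary tumour. In the CIS+IT group 7 mice were given cisplatin, which crosslinks DNA, plus 2 immune checkpoint antibodies, aPD1 and aCTLA4, and in the Control Ab group 4 mice were given control antibody alone. Blood of both groups was taken from the heart at day 21 of treatment, and F4/80+ CD11b+ CD45+ CD3- live cells that were Ly6g low and SSC high were sorted from it as eosinophils. RNA of each sorted population was made into a library with Smart-seq2, which copies whole transcripts from little input. The stain named in the labels holds no antibody to an IgE receptor or to Kit.

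Basophils and mast cells carry on their surface the high-affinity IgE receptor, built from an alpha chain that binds IgE (Fcer1a), a beta chain that amplifies the signal (Ms4a2) and gamma chains shared with other Fc receptors (Fcer1g). When allergen crosslinks it they release granules with histamine, made by the enzyme histidine decarboxylase (Hdc), and proteases, among them carboxypeptidase A3 (Cpa3) of mast cells and the basophil protease Mcpt8. Mature mast cells live in tissues and depend on Kit, the receptor for stem cell factor, whereas basophils circulate, and both lineages depend on the transcription factor Gata2.

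Total counts ran from 5356118 to 8016658 in CIS+IT libraries and from 3733156 to 6721060 in Control Ab libraries. Levels of single genes are CPM, the count divided by the library total and multiplied by 1000000, with totals scaled by TMM, a method that corrects library totals for differences in composition. At this depth a count of 0 allowed a level of up to 0.352 to 0.5 CPM in CIS+IT libraries and up to 0.379 to 1.2 CPM in Control Ab libraries, which is the level of 3 counts and covers counting error only. Control Ab 3 and Control Ab 4 stood apart from the other libraries, since haemoglobin genes took 28.2% and 20.1% of their counts, against 1.16% to 4.42% in CIS+IT libraries, and they had the fewest genes detected. The eosinophil markers Siglecf (491 ± 181 CPM in CIS+IT, SD, n = 7, and 590 ± 335 CPM in Control Ab, SD, n = 4) and Ccr3 (2810 ± 1237 CPM in CIS+IT and 3200 ± 1111 CPM in Control Ab) were present in every library. The summed level of 10 eosinophil markers ran from 2236 to 8796 CPM in CIS+IT and from 5415 to 7237 CPM in Control Ab, with CIS+IT 3 the lowest. In the header of the table, the sample identifiers begin with 19 for all CIS+IT and 20 for all Control Ab libraries, so whatever these digits stand for cannot be told apart from the treatment. The letters that follow are KDV for CIS+IT 1 and all Control Ab libraries, and VIS for CIS+IT 2 to CIS+IT 7.

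The 9 genes did not appear as a set. Hdc was the only one detected in all 11 libraries. Gata2 and Cpa3 were missing from Control Ab 3 alone, Kit was found in all CIS+IT libraries and in Control Ab 1, and Cyp11a1 in 4 CIS+IT libraries and Control Ab 1. The genes most tied to the IgE receptor and to basophils, Fcer1a, Ms4a2, Mcpt8 and Cd200r3, had counts in 2 to 4 libraries each. Per library, 4 to 7 of the 9 genes were detected in CIS+IT and 3 to 7 in Control Ab. The highest level of a gene fell in Control Ab 3 for 3 genes, in Control Ab 1 for 2, in CIS+IT 2 for 2, and in CIS+IT 1 and CIS+IT 4 for 1 each.

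**Figure D1:**
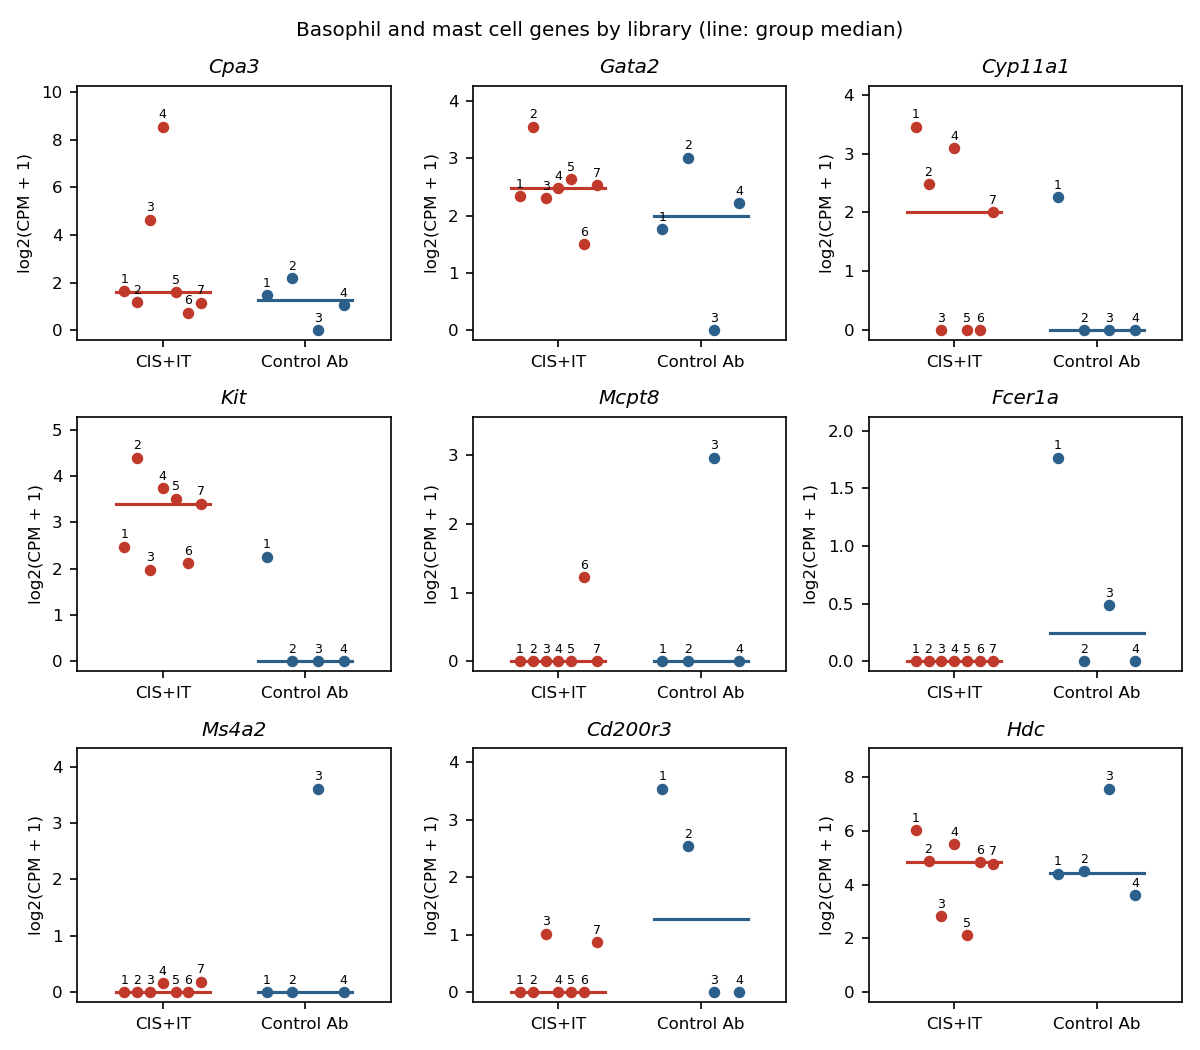
Level of each of the 9 genes in every library, as log2(CPM + 1), with CIS+IT libraries in red on the left, Control Ab libraries in blue on the right, the replicate number above each point and a line at the group median. Cpa3 is far highest in CIS+IT 4, Fcer1a is at 0 in all CIS+IT libraries, and Ms4a2 is highest in Control Ab 3.

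Compared per kilobase of annotated exon, Hdc had the highest median of the 9 genes in CIS+IT libraries, at 4.31 CPM per kb, followed by Cpa3 at 1.33, Kit at 1.08, Gata2 at 0.848 and Cyp11a1 at 0.627 CPM per kb. The remaining 4 genes had a median of 0 there. The ranges of neighbours in this order overlapped among the libraries, from 0.52 to 10.1 CPM per kb for Hdc, 0.44 to 247 for Cpa3, 0.328 to 2.24 for Kit, 0.34 to 1.98 for Gata2 and 0 to 2.08 CPM per kb for Cyp11a1. In Control Ab libraries Hdc was also highest by the median, at 3.26 CPM per kb.

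The granule protease Cpa3 (chromosome 3, 20215620 to 20242181, GRCm38) had the widest spread. In CIS+IT libraries the lowest level was 0.667 CPM, the median 2.02 CPM and the highest 375 CPM, in CIS+IT 4, with 24.0 CPM in CIS+IT 3. Control Ab 1 to Control Ab 4 stood at 1.77, 3.53, 0 and 1.09 CPM. Apart from CIS+IT 3 and CIS+IT 4, the CIS+IT libraries lay within the range of the Control Ab libraries. CIS+IT 4 alone held 3195 of the 3411 Cpa3 counts of the group and stood 15.6-fold above CIS+IT 3. The fitted log2 fold change was 5.04 ± 2.14 (SE), it was 1.67 without CIS+IT 4, and it was -0.15 ± 1.12 without CIS+IT 3 and CIS+IT 4, a choice made after the values were seen.

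Other mast cell granule genes were looked up to see whether Cpa3 stood alone in CIS+IT 4, and the 7 with counts in CIS+IT 4 all had their highest level there. Of 12 mast cell proteases and receptors listed from textbook knowledge, 7 had counts in CIS+IT 4, 3 in CIS+IT 3 and 0 to 2 in each of the other libraries, and their summed level was 479 CPM in CIS+IT 4, 30.4 CPM in CIS+IT 3 and 7.58 CPM or less elsewhere. Ctsg, a listed protease that myeloid precursors also make, was the exception. It had 7.45 CPM in Control Ab 1 and 0 counts in the other 10 libraries, and it was named after its values were seen. Cma1, the mast cell chymase, stood at 262 CPM in CIS+IT 4 and 15.9 CPM in CIS+IT 3, at 2.34 CPM in CIS+IT 1 and 3.0 CPM in CIS+IT 6, and at 0 in the other CIS+IT libraries, against 0.126, 0.141, 0 and 0 CPM in Control Ab 1 to 4. Tpsb2, a mast cell tryptase, stood at 157 CPM in CIS+IT 4, 14.2 CPM in CIS+IT 3 and 0.315 CPM in CIS+IT 2, and had 0 counts in the other CIS+IT libraries and in all Control Ab libraries. Set against a floor of 3 Control Ab counts in all, its pooled CIS+IT level was at least 194-fold higher, and CIS+IT 4 held most of it. Of the 12 listed genes, 1 (Cma1) passed the filter on low counts, and 0 rose and 0 fell by edgeR (Cma1, log2 fold change 8.49 ± 3.06, adjusted p = 0.626). By the same test 0 of all 11389 genes rose and 0 fell, so a count of 0 does not set a list apart.

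Tpsab1 (a second tryptase, 36.5 CPM), Mcpt4 (a chymase of connective tissue mast cells, 19.7 CPM) and Mrgprb1 (a receptor gene of the same family as the mast cell receptor Mrgprb2, 2.11 CPM) followed in CIS+IT 4, and these, Tph1, Prss34 and Hpgds were named after their values were seen. In the other libraries these 3 genes had 0 counts, except for 2 counts of Mcpt4 in CIS+IT 3. Tph1, the enzyme that starts serotonin synthesis in mast cells, had 7.39 CPM and Prss34, a protease known from basophils, 7.98 CPM in CIS+IT 4, and both had 0 counts in the other 10 libraries. Hpgds, the prostaglandin D2 synthase of mast cells, had 7.27 CPM there and 0 to 2.05 CPM in the other CIS+IT libraries, against 0 to 1.39 CPM in Control Ab libraries. Mcpt1, Mcpt2 and Mrgprb2 were at 0 in every library. The tryptase genes Tpsb2 and Tpsab1 are similar in sequence, so reads may have been shared between them.

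Ratios of counts within a library were close for the chymase and less so for the tryptase. Cma1 had 0.7 counts per Cpa3 count in CIS+IT 4 (95% exact interval 0.663 to 0.739) and 0.665 in CIS+IT 3 (0.517 to 0.852). Tpsb2 had 0.419 counts per Cpa3 count in CIS+IT 4 (0.393 to 0.447) and 0.591 in CIS+IT 3 (0.455 to 0.765), so these intervals, which cover counting error only, did not overlap. Tpsab1 had 311 counts in CIS+IT 4 and 0 in CIS+IT 3.

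**Figure D2:**
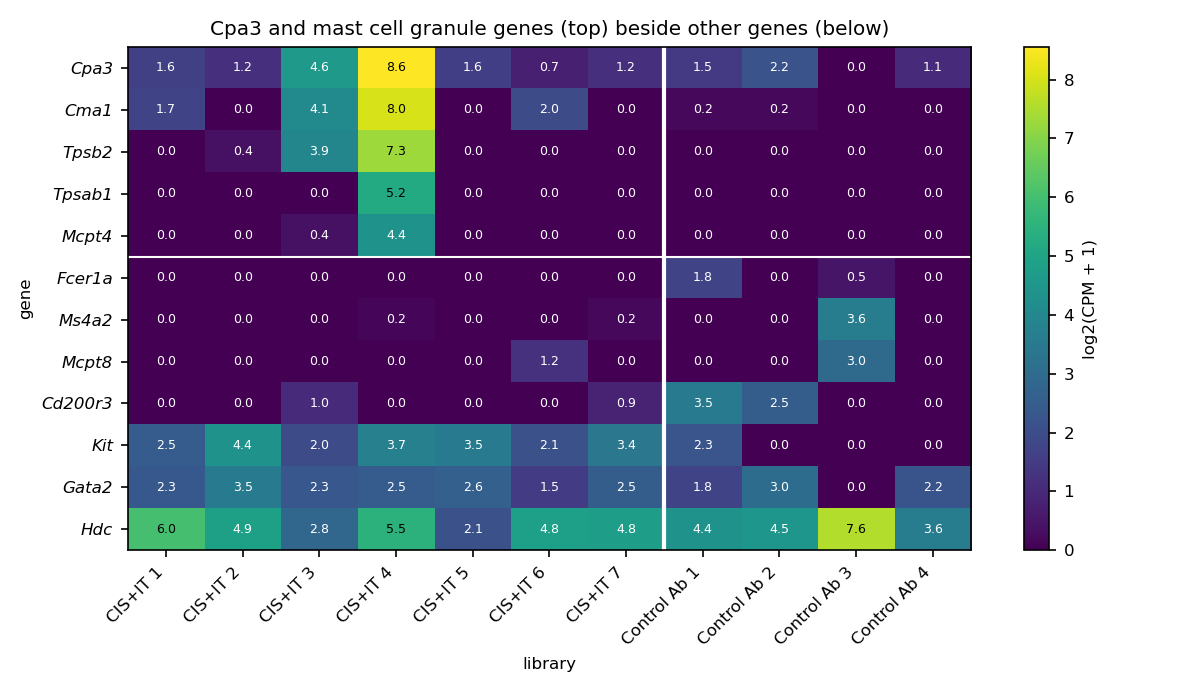
Heat map of log2(CPM + 1), printed in each cell, for Cpa3 and 4 mast cell granule genes (top 5 rows) and 7 other genes (lower rows) in the 7 CIS+IT libraries (left) and 4 Control Ab libraries (right). The granule genes are highest in CIS+IT 4, and those other than Tpsab1 are next in CIS+IT 3. The IgE receptor chains Fcer1a and Ms4a2 are at or near 0 in both.

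The IgE receptor chains did not follow Cpa3. Fcer1a had 0 counts in CIS+IT 4, and Ms4a2 had 1 count there. The 10 B cell markers, none of which was at 0, were also highest in CIS+IT 4 and CIS+IT 3, at 5748 and 4897 CPM. The median over CIS+IT libraries was 2742 CPM, and Control Ab libraries ran from 804 to 2770 CPM. Of the 10 markers, 8 had a fold change above 0, against 5900 of all 11389 genes tested. The level of 10 T cell markers was highest in the same libraries, at 356 CPM in CIS+IT 4 and 412 CPM in CIS+IT 3, against 72.7 to 123 CPM in Control Ab libraries. Neutrophil markers were lowest in CIS+IT 3 (4550 CPM) and stood at 5170 CPM in CIS+IT 4, against 5216 to 15772 CPM in Control Ab libraries. Eosinophil markers in CIS+IT 4 (4367 CPM) also lay below all Control Ab libraries. The part of these cells in the Cpa3 result was not tested. Over all 55486 genes, 28 exceeded 10 CPM in CIS+IT 4 and 10 times the level of every other library, and 5 of these 28 were Cpa3, Cma1, Tpsb2, Tpsab1 and Mcpt4. The other libraries held 0 to 37 such genes, with 37 in Control Ab 3. In bulk RNA of sorted cells, a change in the number of cells of a type and a change in RNA per cell cannot be told apart.

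The 300 bases around the start sites of Cpa3 and of Cma1, which were both highest in CIS+IT 4 and CIS+IT 3, are shown beside those of the IgE receptor chains Ms4a2 and Fcer1a, which did not, to let a reader see which of them hold a GATA motif, the kind of site that Gata2 binds. The sequences are RefSeq's for GRCm38.p6, run 5′ to 3′ on the gene's strand from 250 bases before to 50 bases after the start site, and lie on the minus strand at chr3:20242132-20242431 (Cpa3), chr14:55944626-55944925 (Cma1), chr19:11623670-11623969 (Ms4a2) and chr1:173227180-173227479 (Fcer1a). Capitals mark GATAA or its reverse complement TTATC.
Cpa3: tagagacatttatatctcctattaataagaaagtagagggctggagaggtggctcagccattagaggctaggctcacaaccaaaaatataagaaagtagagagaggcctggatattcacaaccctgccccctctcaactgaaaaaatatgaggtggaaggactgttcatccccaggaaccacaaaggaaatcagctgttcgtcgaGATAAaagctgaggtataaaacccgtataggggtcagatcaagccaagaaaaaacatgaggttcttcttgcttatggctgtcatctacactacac
Cma1: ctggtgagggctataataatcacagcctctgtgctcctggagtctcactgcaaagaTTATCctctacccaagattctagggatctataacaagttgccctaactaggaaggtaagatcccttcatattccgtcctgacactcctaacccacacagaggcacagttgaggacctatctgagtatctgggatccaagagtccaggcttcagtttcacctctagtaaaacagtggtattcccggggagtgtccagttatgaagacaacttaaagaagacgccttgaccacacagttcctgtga
Ms4a2: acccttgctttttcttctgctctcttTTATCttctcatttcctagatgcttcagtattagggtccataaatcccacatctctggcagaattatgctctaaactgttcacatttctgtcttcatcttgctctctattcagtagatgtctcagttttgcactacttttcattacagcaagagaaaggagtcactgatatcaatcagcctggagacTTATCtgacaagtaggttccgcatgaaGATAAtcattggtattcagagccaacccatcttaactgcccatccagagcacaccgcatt
Fcer1a: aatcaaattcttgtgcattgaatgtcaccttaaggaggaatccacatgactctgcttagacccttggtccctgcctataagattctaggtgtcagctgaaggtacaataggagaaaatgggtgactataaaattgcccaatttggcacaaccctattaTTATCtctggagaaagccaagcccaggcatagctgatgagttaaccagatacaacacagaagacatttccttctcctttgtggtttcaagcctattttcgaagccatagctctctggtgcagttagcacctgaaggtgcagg
Cpa3 held 1 match, starting 45 bases before the start site, Cma1 1 match at 194 bases, Fcer1a 1 match at 92 bases, and Ms4a2 3 matches at 224, 37 and 10 bases before it. Of the 9 genes, all of which had a window in the table, 4 had a match (Cpa3, Fcer1a, Ms4a2 and Cd200r3), in 4 of their 12 windows, and 25.4% of the 32851 windows of this length in the mouse table held one. The 4 windows shown each held a match, and the part of the motif in the levels of these genes was not tested. A match is a description of these letters in the reference strain and not evidence of binding.

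The alpha chain Fcer1a (chromosome 1, 173221284 to 173227214) had 0 counts in all 7 CIS+IT libraries, and 19, 0, 1 and 0 counts in Control Ab 1 to 4, or 2.4, 0, 0.4 and 0 CPM. Set against the floor of 3 counts over the CIS+IT group, its pooled level was at least 16.5-fold lower in CIS+IT than in Control Ab, and 19 of the 20 Control Ab counts came from 1 library. The beta chain Ms4a2 (chromosome 19, 11615523 to 11623719) had 1 count in CIS+IT 4, 1 in CIS+IT 7 and 0 in the other CIS+IT libraries, against 28 counts (11.2 CPM) in Control Ab 3 and 0 in the other Control Ab libraries. The pooled ratio of CIS+IT to Control Ab was 0.0289 (95% exact interval 0.00334 to 0.115, counting error only), and it rests on Control Ab 3 alone. Fcer1a was highest in Control Ab 1, where Ms4a2 had 0 counts. Control Ab 3 was the only library with counts of both chains, with 1 count of Fcer1a.

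The gamma chain Fcer1g, which also serves other Fc receptors, was abundant in every library, at 825 ± 247 CPM in CIS+IT (SD, n = 7) and 891 ± 209 CPM in Control Ab (SD, n = 4; log2 fold change -0.11 ± 0.25, edgeR adjusted p = 0.969). The 16 genes of the IgE receptor complex and its first signalling steps all passed the filter on low counts. Of these 0 rose and 0 fell, as over all 11389 genes tested. Lcp2, the adaptor SLP-76, stood at 956 ± 327 CPM in CIS+IT and 828 ± 296 CPM in Control Ab (edgeR adjusted p = 0.951).

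Mcpt8 (chromosome 14, 56082166 to 56085273), the protease used as a marker of mouse basophils, had 8 counts (1.33 CPM) in CIS+IT 6 and 17 counts (6.79 CPM) in Control Ab 3, and 0 counts in the other 9 libraries. It was thus found in 1 library of each group. Cd200r3 (chromosome 16, 44943678 to 44981380), an activating receptor of the CD200 receptor family on mouse basophils and mast cells, had 7 counts in CIS+IT 3 and 6 in CIS+IT 7, or 1.02 and 0.821 CPM, and 0 in the other 5 CIS+IT libraries, against 10.6, 4.8, 0 and 0 CPM in Control Ab 1 to 4. The groups overlapped at 0, and its fitted log2 fold change was -3.79 ± 1.81 (SE), or -2.48 without Control Ab 1.

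Cd200r1, the inhibitory receptor of the same family, ran from 28.5 to 81.9 CPM in CIS+IT libraries with a median of 60.8 CPM, and stood at 282.5, 126, 22.8 and 44.6 CPM in Control Ab 1 to 4. Both receptors were thus highest in Control Ab 1 and Control Ab 2. The log2 fold change of Cd200r1 was -1.08 ± 0.51 (edgeR adjusted p = 0.728), and Cd200r4 stood at 1.51 ± 1.09 CPM in CIS+IT and 2.63 ± 2.15 CPM in Control Ab (edgeR adjusted p = 0.940). The genes of this family lie together and are similar, so their reads may have been split. Of 3 tested family members other than Cd200r3, 0 rose and 0 fell, as over all genes tested. The median log2 fold change of the 3 was -0.99.

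Hdc (chromosome 2, 126593667 to 126619299), which makes histamine, ran from 3.32 to 64.4 CPM in CIS+IT libraries with a median of 27.5 CPM, and stood at 20.2, 21.4, 188 and 11.2 CPM in Control Ab 1 to 4. The groups overlapped, with Control Ab 3 above all other libraries. Control Ab 3 was also the highest library for Ms4a2 and Mcpt8, while Cpa3, Kit, Gata2, Cyp11a1 and Cd200r3 had 0 counts in it. The log2 fold change of Hdc was -1.06 ± 0.79 (SE), and its direction rested on this library, since it was 0.72 ± 0.72 without Control Ab 3 and 0.49 ± 0.81 without Control Ab 3 and Control Ab 4. Control Ab 3 also held the highest summed levels of erythroid (429540 CPM), platelet (11750 CPM) and monocyte markers (17198 CPM), against highest values of 44794, 3153 and 12976 CPM in CIS+IT libraries. It was also the highest library for NK cell markers (153 CPM, against at most 57.0 CPM in CIS+IT) and plasmacytoid dendritic cell markers (252 CPM, against at most 248 CPM in CIS+IT). The same held for the eosinophil granule genes Prg2 (2284 CPM, against at most 579 CPM in CIS+IT) and Epx (121 CPM, against at most 103 CPM in CIS+IT). It did not hold for the eosinophil markers Siglecf and Ccr3. Siglecf, at 242 CPM, was lower in Control Ab 3 than in any other library. Ccr3, at 1575 CPM, was the lowest of the Control Ab libraries. The part of these cells in the Hdc result was not tested.

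Of the genes for histamine, prostaglandin D2 and leukotriene handling, 7 of 13 passed the filter. Of these 0 rose and 0 fell, as over all genes tested (median log2 fold change -0.38, against 0.03 over all genes tested). Alox5ap, which presents arachidonic acid to 5-lipoxygenase, stood at 1106 ± 245 CPM in CIS+IT and 1257 ± 286 CPM in Control Ab (edgeR adjusted p = 0.940), and Alox5, the lipoxygenase itself, at 512 ± 225 CPM in CIS+IT and 668 ± 180 CPM in Control Ab (edgeR adjusted p = 0.903). Serglycin (Srgn), the proteoglycan core of granules, stood at 1851 ± 494 CPM in CIS+IT and 3027 ± 989 CPM in Control Ab (log2 fold change -0.71 ± 0.27, edgeR adjusted p = 0.626), and the fusion protein gene Snap23 at 994 ± 487 CPM in CIS+IT and 1141 ± 303 CPM in Control Ab (edgeR adjusted p = 0.954). In the list of granule proteoglycan and sorting genes, 10 of 11 tested genes had a fold change below 0, against 5489 of all 11389 genes tested. Of the 11 genes 0 passed the test, as over all genes tested (median log2 fold change -0.14).

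Kit (chromosome 5, 75574916 to 75656722) was detected in 7 of 7 CIS+IT libraries, from 2.92 to 19.99 CPM with a median of 9.58 CPM, and stood at 3.79, 0, 0 and 0 CPM in Control Ab 1 to 4. CIS+IT 2 was highest, and CIS+IT 3 and CIS+IT 6 lay below Control Ab 1, so the groups overlapped through 1 Control Ab library. The log2 fold change was 3.12 ± 1.39 (SE). Without Control Ab 1 the Control Ab group was at 0 and no fold change was taken. CIS+IT 1 is the CIS+IT library whose identifier letters match those of the Control Ab group. Kit stood at 4.56 CPM (37 counts) in CIS+IT 1 and at 3.79 CPM (30 counts) in Control Ab 1. The identifier digits of CIS+IT 1 are those of its own group, and the part of the identifiers in the Kit result was not tested.

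Gata2 (chromosome 6, 88193891 to 88207032) ran from 1.83 to 10.7 CPM in CIS+IT libraries, with a median of 4.58 CPM and the highest value in CIS+IT 2, against 2.4, 7.05, 0 and 3.63 CPM in Control Ab 1 to 4. The groups overlapped, and the log2 fold change was 0.60 ± 1.04 (SE). CIS+IT 4, with the highest Cpa3, stood at the CIS+IT median for Gata2. For Kit (12.3 CPM) CIS+IT 4 came next after CIS+IT 2 among CIS+IT libraries, and for Hdc (44.2 CPM) next after CIS+IT 1. Mcpt8 and Cd200r3 had 0 counts in CIS+IT 4. CIS+IT 3, next to CIS+IT 4 for Cpa3, was the lowest CIS+IT library for Kit (2.92 CPM) and had 6.14 CPM of Hdc. The relation of these genes to Cpa3 was not tested. Cyp11a1 (chromosome 9, 58006411 to 58027023), the mitochondrial enzyme that turns cholesterol into pregnenolone, stood at 9.97, 4.56, 7.51 and 3.01 CPM in CIS+IT 1, 2, 4 and 7 and at 0 in the other 3 CIS+IT libraries, against 3.79, 0, 0 and 0 CPM in Control Ab 1 to 4. Like Kit, it was found in Control Ab 1 and in no other Control Ab library, and its log2 fold change was 1.82 ± 1.90 (SE), with none taken without Control Ab 1.

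Among the transcription factors of these lineages, Gata1, which eosinophils also need, stood at 294 ± 95.8 CPM in CIS+IT and 268 ± 87.6 CPM in Control Ab (edgeR adjusted p = 0.968), and Spi1, the myeloid factor PU.1, at 1130 ± 338 CPM in CIS+IT and 1112 ± 389 CPM in Control Ab (edgeR adjusted p = 0.994). Of 14 tested factors 0 rose and 0 fell by edgeR, as over all genes tested. Cebpa, a factor of granulocyte progenitors, was named after its values were seen: it ran from 2.19 to 11.8 CPM in CIS+IT libraries with a median of 5.51 CPM and had 0 counts in all 4 Control Ab libraries, at least 40.1-fold higher in CIS+IT when 3 counts are taken as the floor of the pooled Control Ab libraries. Its groups did not overlap, as was the case for 0.509% of all genes tested in this direction. The edgeR adjusted p was 0.488, and DESeq2 called it with an adjusted p of 0.000227.

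Of the progenitor genes listed with Kit, 5 of 10 passed the filter. Of these 0 rose and 0 fell, as over all genes tested (median log2 fold change -1.99). Kitl, the ligand of Kit, had 0 counts in every library. Ly6a stood at 130 ± 117 CPM in CIS+IT and 37.7 ± 20.8 CPM in Control Ab (edgeR adjusted p = 0.765). Of 4 tested genes listed beside Cyp11a1 for steroid synthesis, 0 rose and 0 fell, as over all genes tested. Tspo stood at 733 ± 143 CPM in CIS+IT and 827 ± 227 CPM in Control Ab (edgeR adjusted p = 0.940). The reductase Fdxr stood at 13.2 ± 6.61 CPM in CIS+IT and 14.8 ± 5.71 CPM in Control Ab (edgeR adjusted p = 0.988).

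In a list of other basophil genes, 13 of 17 passed the filter. Of these 0 rose and 0 fell, as over all genes tested (median log2 fold change 0.29). The integrin chains Itgb7 (742 ± 199 CPM in CIS+IT and 708 ± 234 CPM in Control Ab, edgeR adjusted p = 0.982) and Itga2b (243 ± 84.7 CPM in CIS+IT and 802 ± 890 CPM in Control Ab, edgeR adjusted p = 0.728) were its most abundant members, and Itga2b is also a platelet gene, with 1787 and 1324 CPM in Control Ab 3 and Control Ab 4. Il4, the type 2 cytokine that basophils and eosinophils both make, was detected in every library at 113 ± 37.6 CPM in CIS+IT and 198 ± 62.9 CPM in Control Ab (log2 fold change -0.81 ± 0.28, edgeR adjusted p = 0.626), and was named after its values were seen.

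**Figure D3:**
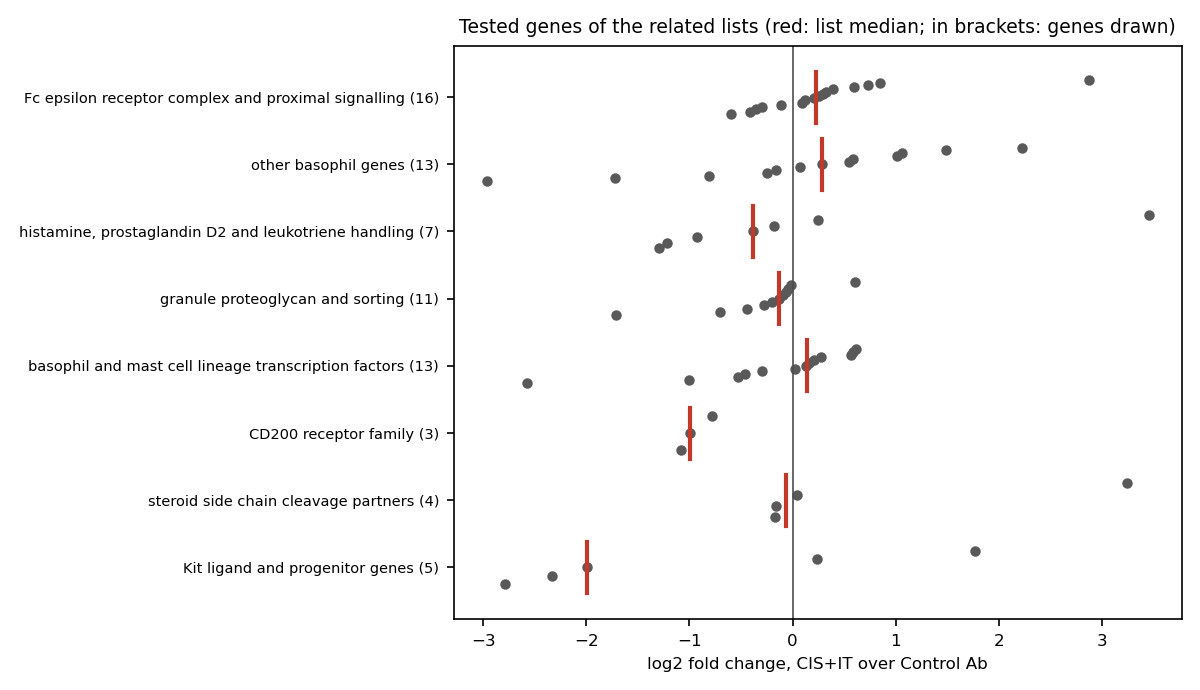
Log2 fold changes of CIS+IT over Control Ab for tested genes of 8 related lists, 1 point a gene, with the list median in red and the number of genes drawn in brackets. Genes with 3 or fewer counts in a group, such as Cebpa and Cma1, are not drawn, and the medians include Cebpa. List medians run from -1.99 for the progenitor list to 0.29 for the other basophil genes, and 5 of the 8 lie below 0.

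The study asked what the combined treatment does to the transcriptome of these cells. Of the 9 genes, 5 (Cpa3, Gata2, Cyp11a1, Kit and Hdc) passed the filter on low counts and entered the all-gene test, and 0 of the 5 were called by edgeR's quasi-likelihood test at an adjusted p of 0.05, as were 0.0% of all 11389 genes in either direction. At an unadjusted p under 0.05 there were 2 (Cpa3 and Kit), both with a fold change above 0, against 6.82% of all genes and 3.7% in that direction. The groups overlapped for all 9 genes, so 0 of 9 lay wholly above or wholly below, against 0.509% of genes tested above and 0.421% below. DESeq2 called 0 of the 5, 1 of which it gave no adjusted p, and called 0.325% of all genes higher and 0.0263% lower. Without the filter DESeq2 also called 0 of the 9, with no adjusted p for 3, against 0.263% of 21666 genes higher and 0.102% lower. Since the genes were listed with these results in view, nothing is read from these counts. The same test called 0 of the 74 tested genes of the related lists, of which 10 had an unadjusted p under 0.05 (edgeR), and DESeq2 called 1, Cebpa.

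**Figure D4:**
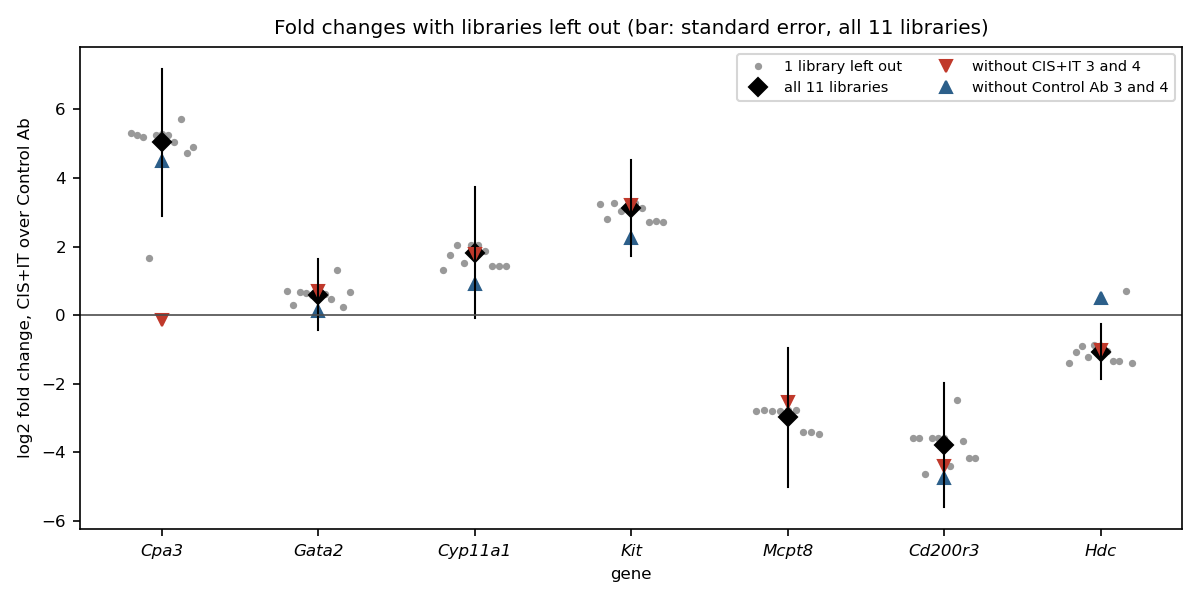
Log2 fold change of CIS+IT over Control Ab for the 7 genes with more than 3 counts in both groups, with all 11 libraries (black, bar of 1 standard error), with 1 library left out (grey), and without CIS+IT 3 and 4 (red) or Control Ab 3 and 4 (blue). The value of Cpa3 is 5.04 with all libraries and -0.15 without CIS+IT 3 and 4, and that of Hdc turns positive without Control Ab 3.

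The genes most like the 9 in their pattern over the 11 libraries, by Spearman correlation with the mean log2(CPM + 1) of the 9, were Gm29170, A130051J06Rik, Rbbp8 and Ccdc82 (rho 0.918 each), Snrnp200 and Nras (0.9 each), Afg1l (0.899), Hspbap1 and Tbck (0.882 each) and Ltn1 (0.873). None of them is in the related lists or the marker lists. The likeness is a description over libraries that differ in depth and composition, and the ranking depended on the measure, since 3 of the 10 were also among the 10 most alike by Pearson correlation and 0 within the 7 CIS+IT libraries. Their rho within those 7 was 0.679 to 0.964. The 9 genes themselves correlated unevenly with their own mean, from a rho of -0.202 for Mcpt8 to 0.848 for Cyp11a1.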

How the data were processed

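RNA of eosinophils sorted from blood was measured in 11 libraries, 7 CIS+IT and 4 Control Ab, grouped by sample title. The authors deposited raw read counts per Ensembl gene, made with HISAT2 2.10, SAMtools 1.15.1, bcl2fastq 2.20.0.422 and build GRCm38, per the submitters' processing notes. How reads were counted, on which strand and with which annotation is not given in the sources used here. Reads of similar genes may therefore have been shared. A row without a gene name held 0 counts (0% of the total) and was left out. Exon lengths came from GENCODE M21 (GRCm38), which matched 55226 of 55486 genes by identifier.

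The test of these counts was that of edgeR 4.0.16, run in R 4.3.3 (quasi-likelihood, robust dispersions, TMM, filterByExpr, Benjamini-Hochberg adjustment over 11389 genes, threshold 0.05). Fold changes are CIS+IT over Control Ab on the log2 scale, and genes that failed the filter were taken from a fit without it. The SE was derived from the same fit, as the size of the fold change divided by the square root of the test's F statistic. P-values set the difference between groups against the spread between mice within a group. They cannot separate the treatment from whatever the first digits of the sample identifiers stand for. The test was checked on simulated counts. DESeq2 1.42.0 (without outlier replacement), limma 3.58.1 voom with quality weights, other scalings and filters, a replicate block and left-out libraries were alternatives. Exact intervals at 95% used scipy 1.17.1 in Python 3.11.15. Any pair of libraries differed by a chi-square per gene of at least 55.2, so none was counted as a repeat.

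The 9 genes, the related lists and the tests were chosen with earlier results of these data known. Genes named beyond the 9 were the 2 most abundant members of each related list and any list member past the threshold (none). A set of eosinophil markers, which were not used in the sort, and the 10 genes most alike were also named. Others are marked as named after their values were seen. A gene that this rule names is not reported here. Of 195 listed symbols 194 were in the table.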

Additional observations from a re-analysis of the deposited data

Results flagged for a closer look

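In 101 groups of values for the named genes and library measures, 23 had a highest library set apart from its group by more than the Dixon criterion. For normally distributed values, chance alone exceeds this criterion in about 1 group in 20. Many of the 23 are genes with counts in 1 library of a group, which pass the criterion at any level. The genes also include ones chosen for standing out. For both reasons the count is not to be read against that rate.

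CIS+IT 4 stood apart from the other CIS+IT libraries for Cpa3 (375 CPM), Cma1 (262 CPM), Tpsb2 (157 CPM), Tpsab1 (36.5 CPM), Mcpt4 (19.7 CPM), Prss34 (7.98 CPM), Tph1 (7.39 CPM), Hpgds (7.27 CPM), Mrgprb1 (2.11 CPM) and Afg1l (23.8 CPM). Of these, Tpsab1, Prss34, Tph1 and Mrgprb1 had counts in CIS+IT 4 and in no other library.

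Control Ab 3 stood apart from the other Control Ab libraries for Hdc (188 CPM), Ms4a2 (11.2 CPM) and Mcpt8 (6.79 CPM). Control Ab 1 stood apart for Fcer1a (2.4 CPM), Kit (3.79 CPM), Cyp11a1 (3.79 CPM), Afg1l (5.18 CPM), Hpgds (1.39 CPM) and Ctsg (7.45 CPM), a serine protease of myeloid precursors.

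The remaining ones were Gata2 (10.7 CPM) and A130051J06Rik (16.7 CPM) in CIS+IT 2, Mcpt8 (1.33 CPM) in CIS+IT 6 and Siglecf (867 CPM) in CIS+IT 1.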

How the results depend on the processing

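By edgeR, 0 genes were higher and 0 lower under every scaling, both other filters and every left-out library or pair of libraries tried, also without Control Ab 3 and 4 together, where the test covered 13012 genes. DESeq2 called 37 genes higher and 3 lower, and the cause was not tested. Leaving out each library in turn gave 0 to 0 genes in both directions. Same-numbered mice of the 2 groups are different animals and their deviations did not correlate (r from -0.11 to 0.0224 over 4 pairs). The main test therefore used no pairing, though so few pairs cannot exclude a shared step of handling. With the number as a replicate block 0 genes were higher and 0 lower. With library totals in place of TMM the median log2 fold change of all genes moved from 0.03 to 0.25.

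Of 153 alternative values of the fold changes of 8 genes, 4 changed sign. These were Cpa3 without CIS+IT 3 and 4 (-0.15) and Hdc without Control Ab 3 (0.72), without Control Ab 3 and 4 (0.49) and with the replicate block (0.34). Limma-voom with quality weights gave 1.18 for Cpa3 and -0.01 for Hdc, and the replicate block gave 6.01 for Kit, 4.79 for Cyp11a1 and 2.97 for Cpa3. The stricter filter of 5 CPM in 4 libraries removed Cpa3 and Cyp11a1. Depth limits the low genes: at levels near 1 CPM, presence in 1 library and absence from another rests on few counts.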

Other observations

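Control Ab 1, in which Fcer1a, Kit, Cyp11a1 and Cd200r3 all had counts, also held 3 genes above 10 CPM and over 10 times every other library, Cyp26a1 (66.0 CPM, against 6.14 CPM in the next library), Mpo (29.2 CPM) and Elane (15.4 CPM). Mpo and Elane encode granule proteins of neutrophil precursors and had 0 counts in the other 10 libraries. Of the 28 such genes in CIS+IT 4, the most abundant beside Cpa3, Cma1 and Tpsb2 were the immunoglobulin segments Igkv14-126 (329 CPM) and Igkv14-100 (90.0 CPM). These genes were picked after their values were seen.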
